A study of Mus musculus with 12 samples.

Results

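The epithelial keratins Krt7, Krt8, Krt18, Krt19, Krt20 and Krt23 were followed in 12 RNA-seq libraries of sorted mouse small intestine cells. These 6 genes were taken by name, and not by a cut on their values, from the 34245 rows of the count table. Earlier results of these data were known at that point. The cells came from male C57BL/6 Lgr5-GFP mice, in which a knocked-in cassette places EGFP, and also CreERT2, under the Lgr5 promoter. Every group carried this allele, and none received a treatment according to the sources used here. Intestinal stem cells (ISC) were the live GFP-high cells of crypt suspensions, and adult enterocytes (AE) were the live Epcam-high villus cells that were negative for CD45 and CD31. Young mice averaged 33 weeks of age and aged mice were 85 weeks older on average. Each of the 4 groups, young ISC, aged ISC, young AE and aged AE, held 3 libraries. The young libraries carry the codes Y1, Y2 and Y3 and the aged ones O1, O3 and O5, and each code occurs once in ISC and once in AE. Cells were sorted without a step that separates enterocytes from other Epcam-high villus cells, so the AE gate also admits goblet, enteroendocrine and tuft cells. The paper lists 3 mice of each age for the sequencing, as many as there are codes. Nothing in the sources states that a code stands for 1 mouse, so p-values measure the spread between these libraries. The main tests of AE against ISC did not pair libraries by code, and an alternative fit given below did.

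Keratins form the intermediate filaments of epithelial cells. Each filament is built from pairs of a type I and a type II protein, so that neither type polymerises alone. Krt8 and Krt7 are type II keratins, and Krt18, Krt19, Krt20 and Krt23 are type I. In simple epithelia such as the intestine, Krt8 is the main type II partner of Krt18, Krt19 and Krt20. Krt19 protein is abundant in crypts and along the villus, whereas Krt20 is known as a keratin of differentiated villus cells. Krt18 antibodies are widely used to find tuft cells, and Krt7 is better known from ductal and bladder epithelium. The filaments are anchored at desmosomes and hemidesmosomes through linker proteins such as desmoplakin and plectin.

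The genes lie in the keratin clusters of the mouse genome (positions are those of the count table, on GRCm38). The type II genes Krt7 (chr15:101411043-101430313, plus strand) and Krt8 (chr15:101996711-102004342, minus strand) share chromosome 15 with Krt18 (chr15:102028216-102032026, plus strand), a type I gene that lies beside Krt8. Krt20 (chr11:99428403-99438150), Krt23 (chr11:99477974-99493137) and Krt19 (chr11:100140810-100148665) lie on the minus strand of chromosome 11. GENCODE M21 gave the same ends for Krt7, Krt19, Krt20 and Krt23 and slightly wider ones for Krt8 and Krt18. In that annotation Gm671 overlaps Krt7 and Gm36026 overlaps Krt8 on the opposite strand. The libraries were made with a directional kit, but whether the counting used strand is not given in the sources used here, so reads of these pairs may not be separable. Krt8 also has a processed pseudogene, Krt8-ps. Reads that map equally well to both copies would have been left out of the counts, which hold uniquely mapped reads.

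RefSeq (GRCm38.p6) promoter entries matched 5 of the 6 genes, all but Krt19. The upstream bases are shown for Krt20, Krt23 and Krt18, whose nearest upstream bases held a long enough stretch outside annotated exons. Krt7 and Krt8 did not meet this rule, so the display is no comparison of called with uncalled keratins. Only bases outside annotated exons of the gene are given, 5′ to 3′ on the gene's own strand and counted from the RefSeq start. Capitals mark matches to the motifs searched on either strand. These were the TATA box letters TATAAA, the first 5 of those letters alone (TATAA), the GC box core GGGCGG, and TTTATG, which reads as CATAAA on the opposite strand.
Krt20 (chr11:99438154-99438253, bases -100 to -1): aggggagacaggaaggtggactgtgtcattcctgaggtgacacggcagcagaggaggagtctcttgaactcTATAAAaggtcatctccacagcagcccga
Krt23 (chr11:99493138-99493220, bases -100 to -18): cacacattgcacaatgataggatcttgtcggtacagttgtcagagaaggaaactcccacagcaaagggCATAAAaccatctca
Krt18 (chr15:102028116-102028179, bases -100 to -37): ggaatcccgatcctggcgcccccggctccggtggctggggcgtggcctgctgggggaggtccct
Krt20 held the whole TATAAA at bases -29 to -24. Among 32851 promoters of the same length, 1.99% held these letters on the gene strand between -40 and -16, and 12.4% held them anywhere in 250 upstream bases on either strand. Krt23 held CATAAA at -32 to -27, and 10.8% of all promoters held this motif in 250 bases. Krt18 held TATAA at -19 to -15, downstream of the bases shown, as 22.8% of promoters did within 250 bases. Krt7 held 4 copies of GGGCGG within 250 bases, as 32.7% of promoters did at least once. In Krt8, the 250 upstream bases held none of the 4 motifs. These matches describe letters only.

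Library totals lay between 11893817 counts and 110794420 counts, the latter in Y3 AE. Levels are given as CPM, counts relative to library size, after TMM scaling over the 12 libraries. The scaling factors were 1.26 to 1.36 in ISC and 0.721 to 0.823 in AE, so the choice of scaling bears on every comparison between the cell types. The titles of 8 of the 12 samples contradict themselves, with a code of one group beside the written name of another, so libraries are grouped here by the column names of the count table. Stem cell and enterocyte markers separated the ISC from the AE columns so named. For age, Ccr2, a chemokine receptor gene, was at 0 to 0.228 CPM in the columns named young and at 0.898 to 3.14 CPM in those named aged in ISC and AE together, with no overlap. Ccr2 was taken up as an age marker from these same libraries, so it is no independent check, and it was chosen here after its values were seen. The stem cell marker Lgr5 was at 79.6 to 146 CPM in ISC and at 0.551 to 4.71 CPM in AE. Summed levels of 18 enterocyte markers were 2052 to 10764 CPM in ISC and 77125 to 123528 CPM in AE. Goblet cell markers reached 57136 CPM and enteroendocrine markers 13464 CPM in AE. Markers of stroma, endothelium and mesothelium summed to 6.18 CPM at most, with Cdh5 and Wt1 at or near 0. Those of T cells and intraepithelial lymphocytes summed to at most 35.7 CPM, in Y1 AE. Monocyte, macrophage and neutrophil markers summed to at most 37.9 CPM, in O5 ISC. Libraries of the same group differed beyond counting noise in every pair, so none was treated as a duplicate.

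All 6 keratins were detected in all 12 libraries, and the lowest value was 251 counts, for Krt23 in O5 AE. To compare levels between genes, CPM were divided by the length of the principal transcript. In ISC, Krt19 ranked first, at 996 ± 203 CPM per kb in young and 1069 ± 240 in aged mice (SD, n = 3). Krt8 came next in ISC, at 651 ± 120 CPM per kb in young and 651 ± 116 in aged mice. The young ISC ranges of Krt19 and Krt8 overlapped, while those of aged ISC did not. With merged exon lengths, the aged ISC ranges overlapped too, with Krt19 at 763 CPM per kb in O5 and Krt8 at 784 in O3.
Krt18 followed in ISC, at 354 ± 63.0 CPM per kb in young and 381 ± 81.0 in aged mice. Krt20 came after Krt18, at 102 ± 26.8 CPM per kb in young ISC, above Krt7 at 36.5 ± 2.62. In aged ISC, the ranges of Krt20 (22.2 to 65.2 CPM per kb) and Krt7 (33.9 to 42.1 CPM per kb) overlapped. Krt23, a little studied keratin, was lowest in all 4 groups.
In AE, Krt20 ranked first, at 1774 ± 173 CPM per kb in young and 2272 ± 778 in aged mice. Krt8 was second in AE, at 1386 ± 302 CPM per kb in young and 1466 ± 287 in aged mice, with ranges that overlapped those of Krt20. Krt19 followed, at 954 ± 391 CPM per kb in young and 843 ± 175 in aged mice. Krt18, Krt7 and Krt23 came after it, in the order they had in ISC. In young AE, the ranges of Krt8 and Krt19 and those of Krt19 and Krt18 overlapped.

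**Figure D1:**
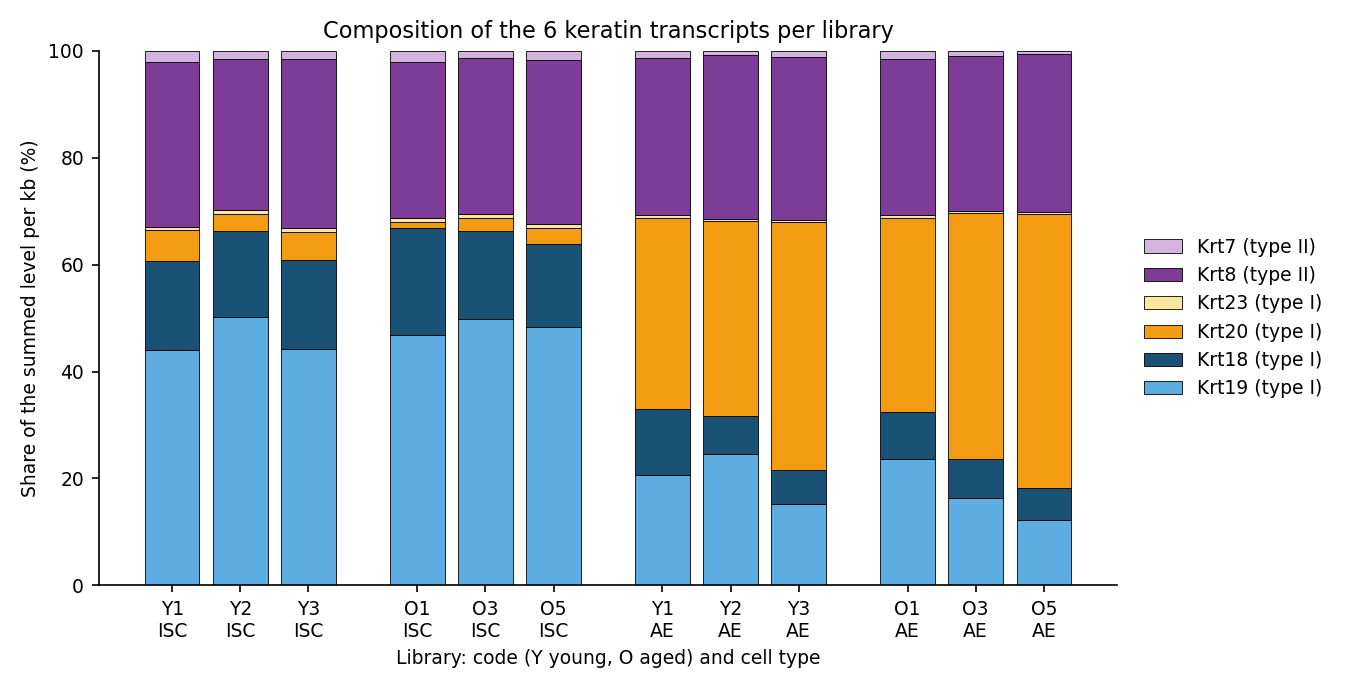
Stacked bars give each keratin's share (%) of the summed level per kb of the 6 keratins in each of the 12 libraries, ordered by group, with type II keratins in purple. Krt8 takes 28.4% to 31.5% of every bar, while Krt20 takes at most 5.79% of an ISC bar and at least 35.7% of an AE bar.

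Seen as shares of the 6 keratins, the 2 cell types differed in which type I keratin led, and much less in Krt8. The shares do not depend on how libraries were scaled. In ISC, Krt8 took 30.3 ± 1.67% (young) and 29.6 ± 0.803% (aged) of the summed level per kb. In AE, it took 30.2 ± 0.708% (young) and 29.2 ± 0.320% (aged). All 12 libraries lay between 28.4% and 31.5%. The type I keratins were led by Krt19 in ISC and by Krt20 in AE. Krt19 took 44.1% to 50.3% in ISC and 12.2% to 24.5% in AE. Krt20 took 1.08% to 5.79% in ISC and 35.7% to 51.4% in AE. Krt18 took at least 15.5% in ISC and at most 12.2% in AE. For Krt19, Krt20 and Krt18, the ranges of the ISC and AE libraries did not meet at either age. The shares of a library add up to a whole, so a rise of Krt20 lowers the shares of the others. As CPM, given below, Krt19 and Krt18 overlapped between ISC and AE at both ages. The shares are a description, and no test was made on them.
The summed level of type I over type II keratins was 2.13 ± 0.186 and 2.19 ± 0.0942 in the ISC of young and aged mice, and 2.19 ± 0.0480 and 2.30 ± 0.0462 in their AE. The range over 12 libraries was 2.02 to 2.35. Ratios to Krt8, the type II partner, moved in opposite directions. Krt8 itself was higher in AE under TMM scaling, which lowers ratios to it. Krt20 over Krt8 per kb was 0.0370 to 0.188 in ISC and 1.19 to 1.74 in AE. Krt19 over Krt8 was 1.40 to 1.77 in ISC and 0.414 to 0.809 in AE. Krt18 over Krt8 was 0.509 to 0.685 in ISC and 0.203 to 0.417 in AE. In the merged exons of all transcripts, Krt7 (7049 against 4094 bases) and Krt19 (1855 against 1576 bases) have longer models than their principal transcripts. This lowers their levels per kb. On merged lengths, Krt8 took 31.7% to 33.2% in aged ISC and 29.7% to 30.5% in aged AE, without overlap. Type I over type II was then 1.91 to 2.07 in aged ISC and 2.18 to 2.29 in aged AE, also without overlap. In young mice, both measures overlapped. The evenness of the Krt8 share and of the type ratio between the cell types thus depends on the length used. The order of the group means was the same with either length.

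**Figure D2:**
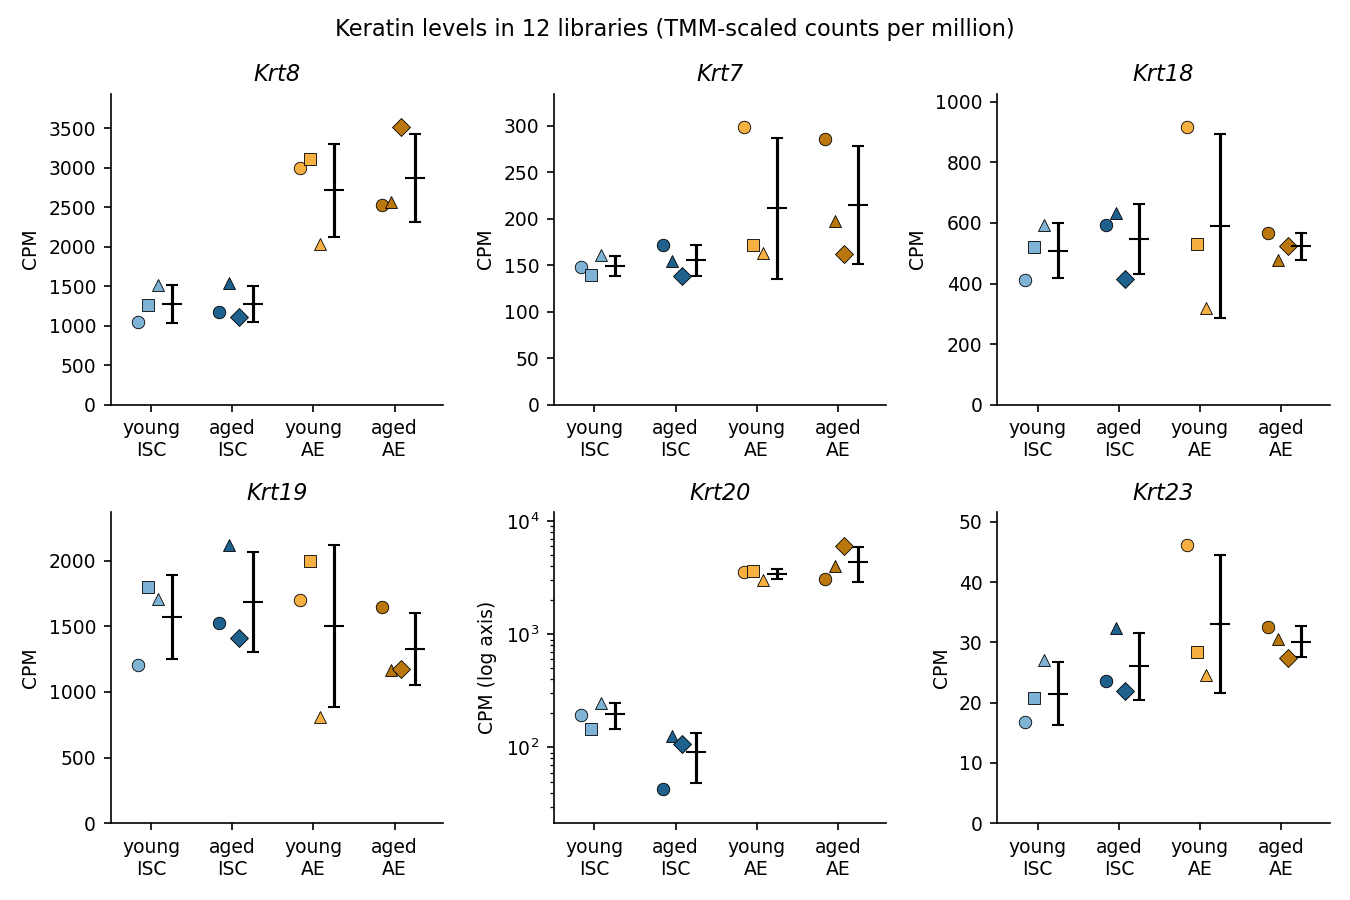
CPM of each keratin in the 12 libraries by group, on linear axes from 0 except for Krt20, which has a log axis. Marker shapes stand for the number in the library code (circle 1, square 2, triangle 3, diamond 5), and bars give the mean and SD of 3 libraries. Krt8 and Krt20 sit higher in AE than in ISC at both ages, and the AE libraries of code Y1 stand highest for Krt18 and Krt23.

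AE were compared with ISC at each age with edgeR's quasi-likelihood test, with p-values adjusted over all genes tested and a false discovery rate (FDR) threshold of 0.05. In AE, Krt20 and Krt8 were higher at both ages under TMM scaling, and the other 4 keratins did not pass the test. Krt20 was at 194, 146 and 249 CPM in the young ISC libraries Y1, Y2 and Y3 and at 3589, 3632 and 3035 CPM in the corresponding AE libraries. In aged mice, Krt20 was at 42.9, 126 and 107 CPM in the ISC libraries O1, O3 and O5 and at 3095, 4013 and 6026 CPM in AE. Every AE library lay far above every ISC library. The log2 fold change of Krt20 was 4.12 (SE 0.31, 95% interval 3.42 to 4.83, adjusted p = 1.10e-04) in young mice, a 17.4-fold difference. In aged mice it was 5.50 (SE 0.49, 95% interval 4.40 to 6.59, adjusted p = 7.40e-06), a 45.2-fold difference. Within codes, the ratio of AE to ISC was 12.2 (Y3) to 72.2 (O1), above 1 in 6 of 6 codes.
Krt8 was at 1048, 1260 and 1518 CPM in young ISC and at 3000, 3108 and 2033 CPM in young AE. In aged mice, Krt8 was at 1178, 1535 and 1112 CPM in ISC and at 2531, 2561 and 3518 CPM in AE. The groups did not overlap at either age. For Krt8, the log2 fold change was 1.09 (SE 0.28, adjusted p = 0.0117) in young and 1.10 (SE 0.25, adjusted p = 0.00364) in aged mice, and AE exceeded ISC in 6 of 6 codes, by 1.34-fold to 3.16-fold.
As background, 53.1% of the 16681 genes tested in young mice and 64.1% of the 15855 genes tested in aged mice were called at this threshold. The share of keratins called, 2 of 6 at each age, was thus not above that of all genes. The median log2 fold change of the 6 keratins was 0.56 in young and 0.27 in aged mice, beside 0.15 and -0.13 for all genes. The CPM ranges of AE and ISC did not overlap for 3 of 6 keratins in young mice, beside 62.9% of all genes tested, and for 2 of 6 in aged mice, beside 69.9%.

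Krt7, Krt18, Krt19 and Krt23 did not differ between AE and ISC by more than the test required. Krt7 was at 148, 139 and 161 CPM in young ISC and at 299, 172 and 163 CPM in young AE. All 3 AE libraries lay above the ISC libraries, but the lowest AE value exceeded the highest ISC value only slightly. Its log2 fold change was 0.50 (95% interval -0.07 to 1.08, adjusted p = 0.125) in young and 0.40 (-0.09 to 0.89, adjusted p = 0.137) in aged mice. Without the aged AE library O5, Krt7 passed the test in aged mice (log2 fold change 0.57, adjusted p = 0.0434).
Krt18 was at 413, 520 and 593 CPM in young ISC and at 917, 532 and 319 CPM in young AE. The AE values lay both above and below the ISC values. In aged mice, Krt18 was at 592, 634 and 415 CPM in ISC and at 567, 477 and 524 CPM in AE. Its log2 fold change was 0.21 (95% interval -0.63 to 1.06) in young and -0.14 (-0.62 to 0.33) in aged mice, with adjusted p-values of 0.645 and 0.581. Without the young AE library Y1, the young value was -0.28.
Krt19 was at 1204, 1797 and 1709 CPM in young ISC and at 1701, 1997 and 813 CPM in young AE. In aged mice, Krt19 was at 1523, 2118 and 1415 CPM in ISC and at 1648, 1168 and 1172 CPM in AE. The groups overlapped at both ages, with log2 fold changes of -0.06 (95% interval -0.89 to 0.77) and -0.42 (-0.99 to 0.15).
Krt23 ranged from 16.7 to 32.4 CPM in ISC and from 24.5 to 46.1 CPM in AE. Its log2 fold change was 0.62 (95% interval -0.04 to 1.27, adjusted p = 0.102) in young and 0.14 (-0.28 to 0.56, adjusted p = 0.528) in aged mice.

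**Figure D3:**
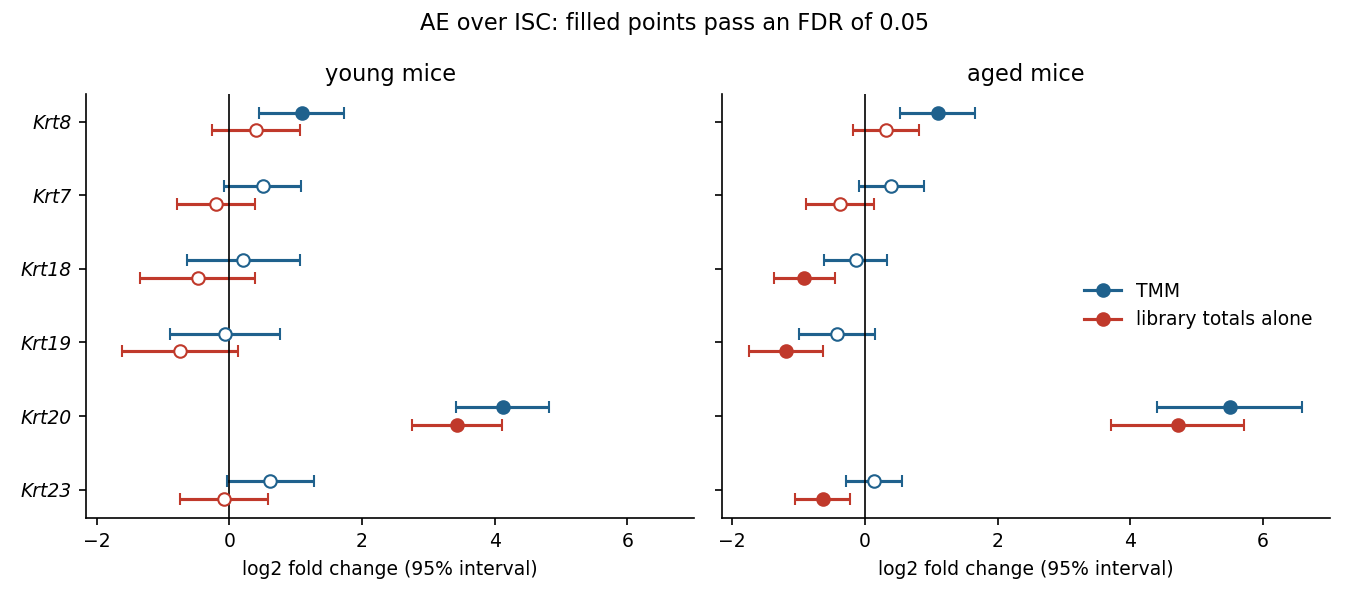
Log2 fold change of AE over ISC for each keratin in young (left) and aged (right) mice with its 95% interval, under TMM scaling (blue) and with library totals alone (red). Filled points pass an FDR of 0.05, which holds for Krt20 under both scalings and for Krt8 under TMM only. With library totals, Krt18, Krt19 and Krt23 also pass in aged mice, as lower in AE.

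The call of Krt8, but not that of Krt20, depended on the scaling between the cell types. With library totals alone, the median log2 fold change of all genes tested moved from 0.15 to -0.55 (young) and from -0.13 to -0.91 (aged). The share of called genes that were higher in AE fell from 52.2% to 26.5% (young) and from 46.8% to 24.2% (aged), with 58.2% and 70.5% of genes called. Krt20 remained called, with log2 fold changes of 3.43 in young and 4.71 in aged mice. Krt8 was at 1381 to 1980 CPM in ISC and 1531 to 2558 CPM in AE on this scale, so the ranges overlapped. Its log2 fold change was 0.40 (adjusted p = 0.260) in young and 0.32 (adjusted p = 0.227) in aged mice. In aged mice, Krt18 (-0.91, adjusted p = 0.00267), Krt19 (-1.19, adjusted p = 0.00181) and Krt23 (-0.63, adjusted p = 0.0115) were then called lower in AE. Relative to the median of all genes, Krt8 was 0.94 log2 units higher in young AE under TMM and 0.95 units higher with library totals. In aged mice, these differences were 1.22 and 1.23. A change of scaling shifts nearly all genes by the same amount, so the likeness of these values is built in. It is no check on the call of Krt8.

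Aged mice were compared with young mice within each cell type to ask whether keratin transcripts shifted with age. In ISC, 0 of 15552 genes were called (0%), 695 genes had an unadjusted p under 0.05, and DESeq2 called 59, none of them among the 6 keratins. Krt20 was the keratin with the lowest p. Its ISC values, given above, were 146 to 249 CPM in young and 42.9 to 126 CPM in aged mice, so that all aged libraries lay below all young ones. Its log2 fold change was -1.08 (95% interval -1.93 to -0.24), with an unadjusted p of 0.0180 and an adjusted p of 1.00 by edgeR, which does not pass. Such a separation of the groups was seen in 8.84% of all genes tested, and in 1 of 6 keratins. Without the aged ISC library O1, the log2 fold change of Krt20 was -0.74.
The other 5 keratins had log2 fold changes between 0.01 and 0.28 in ISC. The 95% intervals were widest for Krt23 (-0.23 to 0.80) and narrowest for Krt7 (-0.26 to 0.39).

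In AE, 0 of 16265 genes were called by age (0%), 809 had an unadjusted p under 0.05, and DESeq2 called 17, none of them among the 6. No keratin had groups that did not overlap, beside 10.9% of all genes. Krt20 was at 3035 to 3632 CPM in young and 3095 to 6026 CPM in aged AE, with a log2 fold change of 0.37 (95% interval -0.22 to 0.97, adjusted p = 0.833). Krt8 had a log2 fold change of 0.10 (95% interval -0.44 to 0.64). Those of Krt7, Krt18, Krt19 and Krt23 lay between -0.16 and 0.05, and their intervals reached from -0.89 to 0.68.
The difference of the age effect between AE and ISC was tested over all 12 libraries, the same ones as in the comparisons above. There, 1 of 17377 genes was called (0.00575%), 757 had an unadjusted p under 0.05, and DESeq2 called 43, none of them among the 6. For Krt20, the difference was 1.45 on the log2 scale (95% interval 0.32 to 2.58, unadjusted p = 0.0156, adjusted p = 1.00 by edgeR). For the other 5 keratins the difference lay between -0.40 and 0.08.

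**Figure D4:**
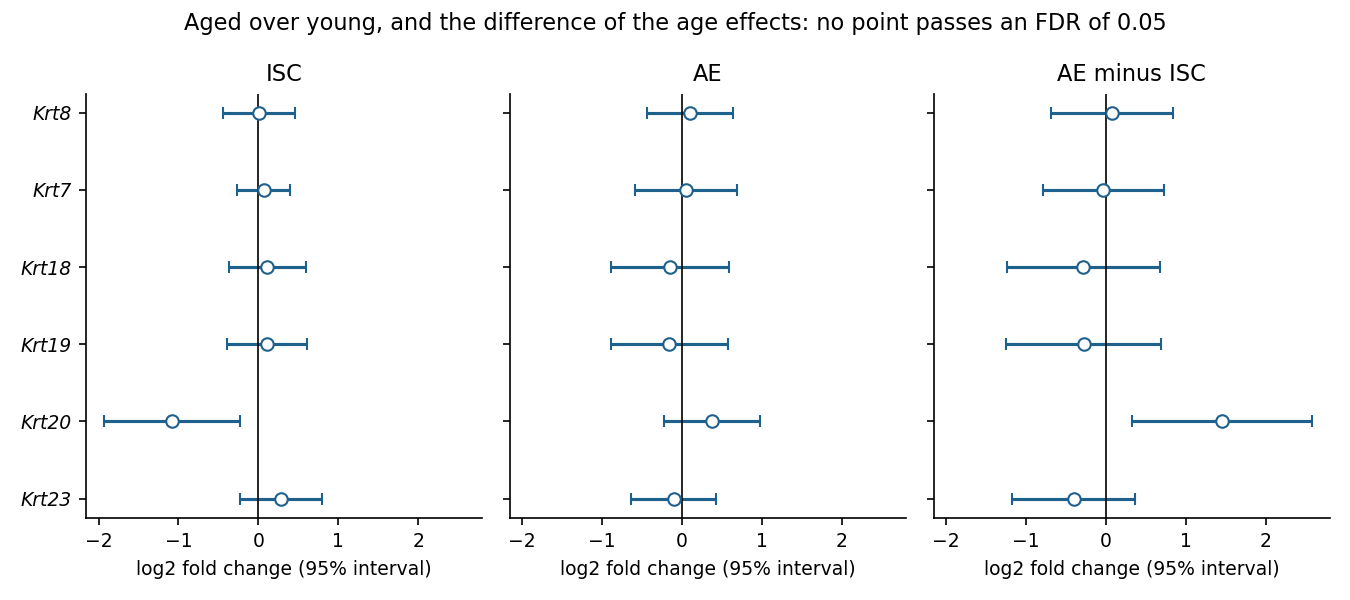
Log2 fold change of aged over young for each keratin in ISC and AE, and the difference of these age effects (AE minus ISC), with 95% intervals under TMM scaling. All points are open because none passes an FDR of 0.05, and Krt20 is the keratin whose interval in ISC and in the difference lies to 1 side of 0.

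Keratin values were also set beside summed markers of particular cell types, over the libraries of both ages within each sorted cell type. In bulk samples, fewer cells of a type and less RNA per cell cannot be told apart. In ISC, Krt20 was lowest in O1 and highest in Y3, as was the summed level of the enterocyte markers, at 2052 CPM in O1 and 10764 CPM in Y3. The enterocyte sums were 4749, 4391 and 10764 CPM in young and 2052, 5963 and 3214 CPM in aged ISC, so the 2 age groups overlapped. Over the 6 ISC libraries, Pearson's r between log2 values was 0.89 (exact permutation p = 0.0292) and Spearman's rho was 0.83 (exact permutation p = 0.0583). Without the 2 libraries farthest from the median marker level, r was 0.39, so the relation rests on those libraries. Of 60 such relations computed (6 keratins, 5 marker lists, 2 cell types), none passed after adjustment. With 6 libraries, the lowest p that permutation can give would not pass for a relation on its own. This outcome therefore decides nothing about a single relation. The adjusted p of Krt20 with enterocyte markers was 0.194.

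Krt18 was set beside markers of rarer epithelial cells, and none of these relations passed after adjustment, with the same limit. The summed level of 12 tuft cell markers was 1104, 652 and 367 CPM in young AE (Y1, Y2 and Y3) and 556, 469 and 472 CPM in aged AE (O1, O3 and O5). Krt18 had its highest value in Y1 and its lowest in Y3, as did the tuft sum. Pearson's r over the 6 AE libraries was 0.94 (exact permutation p = 0.00694, adjusted p = 0.167) and Spearman's rho was 0.94 (exact permutation p = 0.0167). Without the 2 farthest libraries, Y1 and Y3, r was 0.54. In ISC, where tuft sums were 146 to 493 CPM, r was 0.88 (exact permutation p = 0.0167, adjusted p = 0.167) and rho was 0.89.
Krt18 and enteroendocrine markers in AE had the lowest adjusted p of the 60 relations, which did not pass. The marker sum was 13464 CPM in Y1 and 3447 to 8377 CPM in the other 5 AE libraries. Pearson's r with Krt18 was 0.90 (exact permutation p = 0.00139, adjusted p = 0.0833), rho was 1.00, and r was 0.95 without the 2 farthest libraries. The p of 0.00139 is the lowest that permuting 6 libraries can give, so this relation could not have passed on its own. Tuft cell and enteroendocrine sums were both highest in Y1 and lowest in Y3 among the young AE libraries, so the lists cannot be told apart here.
Krt23 had its highest AE value in Y1 as well, with r of 0.91 with the tuft sum (exact permutation p = 0.0194) and 0.04 without the 2 farthest libraries. In Y1 and O1, which had the 2 highest enteroendocrine sums, Krt7 was at 299 and 286 CPM, against 163 to 197 CPM in the other AE libraries. Those others did not keep this order, with Krt7 at 197 CPM in O3 (sum 3963 CPM) and 163 CPM in O5 (sum 4553 CPM). This relation, too, did not pass after adjustment.

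**Figure D5:**
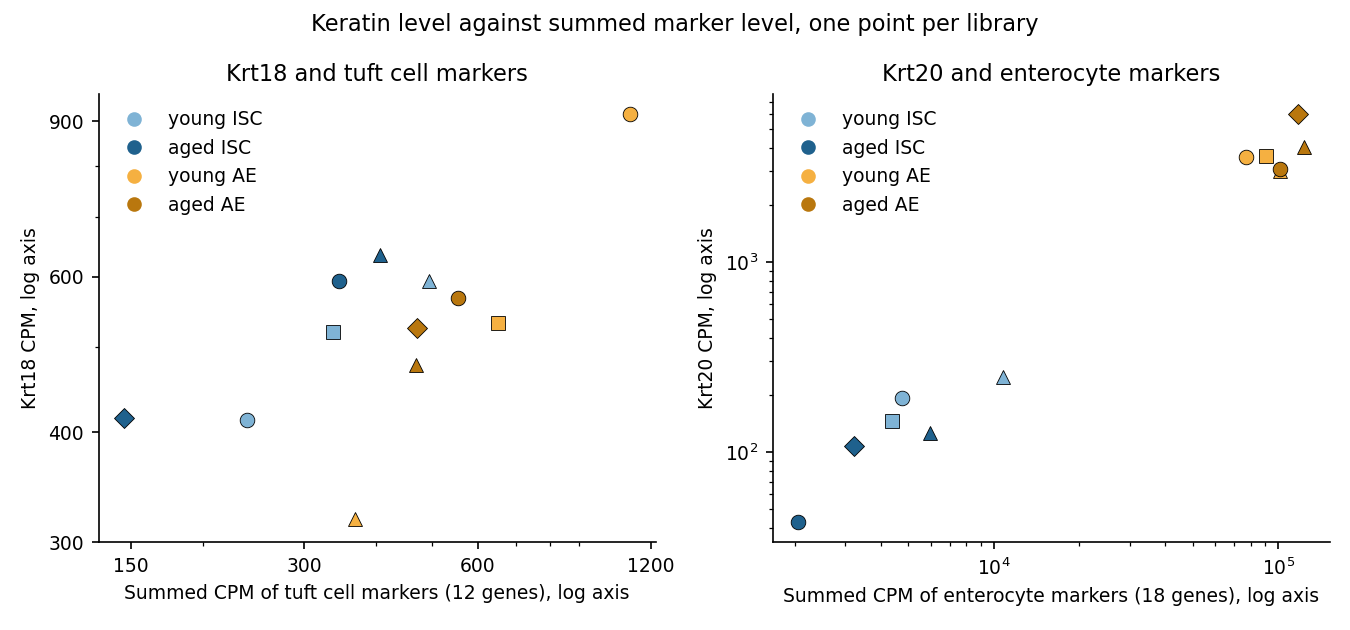
Krt18 against the summed CPM of 12 tuft cell markers (left) and Krt20 against the summed CPM of 18 enterocyte markers (right), 1 point per library on log axes, with marker shapes by code number as in the plot of keratin levels. Krt18 at 917 CPM goes with the highest tuft sum, 1104 CPM, and the 6 AE libraries lie apart from the 6 ISC libraries for Krt20.

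Beside these 6 genes, the table held 48 other keratin rows, of which 26 had no count in any library. The other keratins together summed to 10.4 to 27.0 CPM per library, against 3022 to 11430 CPM for the 6. Of 8 tested in young mice, 3 were called higher and 3 lower in AE, and of 9 tested in aged mice, 3 were called higher and 4 lower, beside 53.1% and 64.1% of all genes called. Among those called, Krt12, Krt78, Krt31 and Krt4, and Krt87 in aged mice, met the count filter through a single cell type. The tally is thus partly made by the filter and is no result about these keratins as a set. Krt12, a type I keratin best known from the corneal epithelium, was at 0 to 0.168 CPM in ISC and at 4.22 to 19.2 CPM in AE. With 0 counts in aged ISC against 329 in aged AE, Krt12 was at least 272-fold higher in aged AE, taking 3 counts over the group as the floor. With library totals, the bound was 150-fold, without the ISC library O1 it was 146-fold, and without the AE library O5 it was 180-fold. In young mice, the log2 fold change was 6.36 (adjusted p = 3.46e-04) on 4 counts in ISC. Krt12 met the count filter at both ages only through AE, where it was higher, so its calls give direction only.
Krt222, a keratin-related gene of the type I cluster, was at 0.397 to 1.46 CPM in ISC and at 2.29 to 4.82 CPM in AE, with log2 fold changes of 2.26 in young and 2.00 in aged mice. Krt15, a type I keratin of basal and progenitor cells in stratified epithelia, went the other way, at 2.75 to 7.69 CPM in ISC and 0.456 to 1.43 CPM in AE. Its log2 fold change was -2.43 (adjusted p = 0.00599) in young and -2.31 (adjusted p = 0.00234) in aged mice. Krt10, a keratin of differentiating epidermis, was at 2.60 to 6.24 CPM over all libraries and was called only with library totals, as lower in AE. Krt222 and Krt15 kept their direction and their call with library totals, and so did Krt12, with the limit given above.
Among keratins with group means under 1 CPM, named here after their values were seen, Krt78 was called higher and Krt4 and Krt31 lower in AE at both ages, and Krt87 lower in aged mice. Krt78 had 0 to 3 counts per ISC library and 3 to 84 per AE library. Krt4 had 4 to 12 counts per ISC library and 0 in all AE libraries. Krt87 had 10 to 22 counts per aged ISC library and 0 to 2 per aged AE library. These keratins entered the tests mainly through the group where they were higher, so their calls give direction only. Krt31, a hair keratin, had 37 counts in young ISC, 75 in aged ISC and 0 in all AE libraries. It was thus at least 26.0-fold lower in young AE and at least 10.1-fold lower in aged AE, on the same floor. With library totals, the bounds were 43.8-fold and 18.2-fold. The young bound rests on the depth of Y3 AE, without which it was 5.87-fold. The aged bound was 6.63-fold without O1 AE and 6.42-fold without O3 AE.

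Genes that attach keratin filaments to junctions were taken from a list of 24 desmosome, hemidesmosome and linker genes, of which 23 were in the table. In young mice, 12 of 20 tested were called higher and 1 lower in AE, with a median log2 fold change of 0.89, against 0.15 for all genes. In aged mice, 12 of 21 were higher and 2 lower, with a median of 0.89 against -0.13. As given above, 53.1% of all genes in young and 64.1% in aged mice were called in either direction. With library totals, these counts became 6 higher and 5 lower in young and 7 higher and 6 lower in aged mice, and the medians 0.18 and 0.10 against -0.55 and -0.91.
Plec, which encodes plectin, a linker of keratin filaments to hemidesmosomes, had a log2 fold change of 3.01 in young and 3.75 in aged mice. Dst, a plakin of hemidesmosomes, had values of 2.55 and 2.66. Evpl, which encodes envoplakin, a linker at desmosomes, had 1.87 and 1.97. Itgb4, the hemidesmosomal integrin subunit that plectin binds, had 1.80 in young mice. All 4 were called higher at both ages under both scalings. Dsp, which encodes desmoplakin, was not called (0.37 and 0.54). Pkp1, a plakophilin of desmosomes, was called lower at both ages (-2.07 and -3.14). Itga6, the integrin partner of Itgb4, was called lower in aged mice only (-0.76), with -0.69 (adjusted p = 0.130) in young mice.
None of the list was called by age in either cell type, where 0 of 15552 genes in ISC and 0 of 16265 in AE were called.

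Of 16 intermediate filament genes outside the keratins, 12 were tested in young mice, with 4 called higher and 2 lower in AE, and 11 in aged mice, with 3 higher and 3 lower. The median log2 fold change was 0.77 in young and 0.27 in aged mice, against 0.15 and -0.13 for all genes, of which 53.1% and 64.1% were called. Lmnb1 and Lmnb2, the B-type lamins of the nuclear envelope, were called lower at both ages, with values of -2.66 and -3.28 for Lmnb1 and of -0.64 and -0.56 for Lmnb2. Prph, which encodes peripherin of peripheral neurons, was called higher at both ages (4.81 and 5.52), and these calls and directions held with library totals. Prph had no counts in aged ISC and entered the aged test through its AE counts alone. Its aged value of 5.52 therefore gives a direction and not a measured size. Ina, a neuronal filament gene, and Nefl, the neurofilament light chain, were called higher in young mice (3.07 and 2.09) and Bfsp1, a filament of the lens, in aged mice (0.85), but none of these 3 was called with library totals. Lmna, the A-type lamin, was called higher at both ages (0.83 and 0.67), but with library totals its values were 0.14 and -0.12 and it was not called. Vim, which encodes vimentin of mesenchymal cells, was at 2.54 to 18.7 CPM over all libraries and was called lower in aged AE (-1.40). By age, none of the list was called, as was no other gene tested in ISC (0 of 15552) or AE (0 of 16265).

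For each keratin, the 3 other genes with the most similar profile over the 12 libraries were found by Pearson's r of log2 CPM among 17377 genes. These r describe 12 points that fall into the 2 cell types and share depth and scaling, and they are given without a test. Krt20 was most like Synpo, Slc7a15 and Asah2 (r 0.996 to 0.997), and Krt8 was most like 4930552P12Rik, Ckmt1 and S100a10 (0.977 to 0.984). The other 4 keratins had no neighbour above 0.931. Krt7 was most like Itm2c, Gm21971 and Phox2a, Krt18 most like Ccdc28b, Vav1 and Ptpn18, and Krt19 most like Gamt, Eif1a and S100a16. Krt23 was most like Tmem246, Folr1 and Agt.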

How the data were processed

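Sorted ISC and AE of young and aged (mean 118 weeks) mice were sequenced as 12 single-end libraries. The authors trimmed the reads (Trim Galore 0.4.4), mapped them to GRCm38 (HISAT2 2.1.0, versions from the submitters' processing notes) and deposited raw counts per gene of uniquely mapped reads over merged exons. The annotation release and the strand setting of the counting are not given in the sources used here. A second deposited table holds values and FDRs of the authors' own comparisons and was not used. In 8 of 12 sample titles the 2 parts name different groups, so each column was placed in the group its own name spells.

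A gene entered a comparison when its libraries held 10 counts or more of it in sum. After TMM scaling, edgeR 4.0.16 was used (quasi-likelihood test, two-sided, Benjamini-Hochberg adjustment over all genes tested, R 4.3.3). Calls were made at an FDR of 0.05. Code was tested on simulated data. SE was taken from the F statistic and intervals from its degrees of freedom. CPM were scaled by TMM over 12 libraries. Lengths came from GENCODE M21 (principal transcripts), and promoters from RefSeq. Correlations used exact two-sided permutation of libraries (scipy). Intervals cover the spread between libraries, and floors cover counting error only.

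The ISC and AE library of 1 code shared their deviations from the group means, with r over genes of 0.121 to 0.287 in 6 of 6 pairs, against -0.214 to 0.0584 in 12 pairs whose codes differ. An alternative fit took the code as a replicate block. This check rests on the data and on the codes in the column names. Deviations cancel out within each group, so a positive r in same-code pairs lowers the r of the other pairs. The contrast is thus partly built in.

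The 6 keratins and the gene lists were chosen with earlier results of these data known. The genes named beside them are the other keratins with a group mean of at least 1 CPM, up to 4 called members of each list with the largest rise and fall, and any list member called by age. Dsp, Itga6, Ccr2 and the keratins under 1 CPM were named after their values were seen. Alternatives were DESeq2 1.42.0, RLE and upper-quartile scaling, other filters, robust dispersion, 1 fit on 4 groups, the replicate block and leaving out each library. Library totals as the only scaling, merged exon lengths, the bounds without 1 library and the correlations with marker sums were chosen after seeing the data.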

Additional observations from a re-analysis of the deposited data

How the results depend on the processing

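The calls of Krt20 and Krt8 in AE against ISC held under DESeq2, RLE and upper-quartile factors, both other filters, robust dispersion, 1 fit on 4 groups, the replicate block and each left-out library. With the replicate block, 8997 genes were called in young mice, 10513 in aged mice and 21 in the difference of age effects, against 1 without it, and no keratin call changed. Krt20 in that difference then had a log2 value of 1.51 (adjusted p = 0.323). With library totals alone, 1 keratin was called in young and 4 in aged mice, and 0 genes in the difference. Values that changed sign there were Krt7 (-0.20), Krt18 (-0.47) and Krt23 (-0.077) in young mice, Krt7 (-0.38) and Krt23 (-0.63) in aged mice, Krt7 (-0.083) and Krt8 (-0.044) by age in AE, and Krt8 (-0.081) in the difference. By age, the genes called were 59 in ISC, 17 in AE and 43 in the difference under DESeq2, and 1 in ISC and 2 in AE with no filter on low counts. In 1 fit on 4 groups, 2 genes were called in ISC and Krt8 by age in ISC was -0.00089. Krt7 in the difference was 0.010 under DESeq2 and under RLE factors. The cause of these changes was not tested.

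Leaving out 1 library at a time gave 0 to 1 genes by age in ISC, 0 to 1 in AE and 0 to 3 in the difference. Among log2 values, young AE against ISC ran from -0.28 to 0.43 for Krt18 and -0.43 to 0.17 for Krt19. By age in ISC, Krt7 ran from -0.014 to 0.15, Krt8 from -0.15 to 0.15, Krt18 from -0.021 to 0.28 and Krt19 from -0.094 to 0.23. By age in AE, Krt7 ran from -0.21 to 0.37, Krt8 from -0.068 to 0.22, Krt18 from -0.45 to 0.31, Krt19 from -0.45 to 0.11 and Krt23 from -0.28 to 0.21. In the difference, Krt7 ran from -0.32 to 0.21, Krt8 from -0.13 to 0.24 and Krt18 from -0.59 to 0.094. None of these passed the test.

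With library totals, the summed level per kb of the 6 keratins was 2779 in young ISC, 2916 in aged ISC and 3677 in aged AE, against 2153, 2204 and 5017 CPM per kb under TMM. With merged exons, type I over type II was 2.00 in aged ISC, 2.13 in AE of young mice and 2.25 in AE of aged mice. With 3 libraries a group, the 95% intervals of the age effects leave changes of the sizes given in the report undetected.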
